A study of Mus musculus with 4 samples.

Results

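Macrophages that live in the peripheral nerve were followed here through 10 genes by which such cells are commonly recognised: Csf1r, Adgre1, Cd68, Aif1, Trem2, Mrc1, Cd163, Folr2, Lyve1 and Timd4. They were taken by gene symbol, and all 10 are among the 50593 genes of the deposited table. Sciatic nerve was collected from mice of strain 129S1/SvImJ (named Sv/129 in the study's methods) at 6 months of age. The mice labelled HSF V30M carry a human TTR transgene with the V30M mutation, lack the endogenous Ttr gene, and have a heterozygous deletion of Hsf1, the gene of heat shock factor 1. The mice labelled HSF WT carry the same heterozygous Hsf1 deletion and no transgene. The promoter that drives the transgene is not given in the sources used here. The labels list 2 mice in each group, whereas n = 4 stands in the methods for RNA sequencing, per group or in all not being said. TTR V30M causes a hereditary amyloid neuropathy, and the study sequenced nerve RNA to ask whether the chemokine response is impaired in these mice.

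Resident macrophages lie inside the endoneurium, between the nerve fibres, and in the outer sheaths, often along blood vessels. They survive on signals through the receptor CSF1R, take up debris and dying cells through scavenger and lipid receptors, and present antigen. Those along vessels and in the sheaths of many tissues carry the scavenger receptors CD163 and MRC1 together with LYVE1, FOLR2 and, in part of the cells, TIMD4, whereas TREM2 and CD68 mark active uptake and lysosomal digestion.

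Each group has a single value per gene, as FPKM, the number of sequenced fragments corrected for transcript length and for depth, which the authors estimated over the libraries of the group. No value per mouse was used, so no difference here has a replicate check, no spread between mice can be given, and no test was run. The error given beside a value is a 95% exact Poisson interval on the fragments the value stands for, and it covers counting error only. The low values of genes with a single transcript pile up at the worth of 1 fragment in each library. By these steps the libraries labelled HSF WT differed 1.35-fold in depth and those labelled HSF V30M 1.17-fold. The deeper library labelled HSF V30M was 1.23-fold deeper than the deeper one labelled HSF WT.

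The genes altered by design were looked at first. Mouse Ttr, null by design in HSF V30M mice, had an FPKM of 6.10 in nerve labelled HSF V30M, worth 131 to 154 fragments. In nerve labelled HSF WT, where the gene is intact, it is listed at 0, and 3 fragments would have given 0.197. The reads were aligned to a mouse reference, which holds no human transgene. Hsf1, heterozygous in both groups by design, had 7.94 in nerve labelled HSF V30M and 15.0 in nerve labelled HSF WT, 1.88-fold lower with a counting interval of 1.62 to 2.19. Its levels were thus unequal although the same deletion is named for both groups. On its face Ttr went against the labels, but whether transgene reads were counted for the mouse gene was not tested, so its value does not settle them. Every direction below is between groups as they are labelled. Tissue and cell type were present in both. The Schwann cell gene Mbp, which encodes myelin basic protein, had 3854 in nerve labelled HSF V30M and 3441 in nerve labelled HSF WT. All 8 Schwann cell markers and all 19 other genes of macrophages in general reached a mean FPKM of 1, and so did all 10 resident macrophage genes. Lyve1 and Mrc1 are not confined to macrophages, since lymphatic endothelium also makes them.

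Resident macrophage genes were lower in the nerve labelled HSF V30M or close to equal in both groups, and none was higher past a fold of 1.5. Cd68, Trem2, Aif1 and Folr2 were lower past that fold, at 0.502, 0.485, 0.544 and 0.596 times their level in nerve labelled HSF WT. Csf1r, Adgre1, Cd163, Lyve1, Mrc1 and Timd4 lay within it. Cd163, the haemoglobin scavenger receptor, was on the higher side in nerve labelled HSF V30M. In a bulk nerve, fewer macrophages and less RNA per macrophage cannot be told apart.

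The fold was read on log2((HSF V30M + 1) / (HSF WT + 1)), a scale that understates the difference of low genes. Of the 10 genes 4 were lower past the fold, against 8.44% of the 15620 genes whose mean FPKM reached 1. None of the 10 was higher, where the share over all those genes was 8.22%. Among the 12393 genes whose mean FPKM lies between those of Timd4 and Csf1r, 8.67% were lower past the fold. The median log2 ratio of the 10 was -0.39, beside 0.003 over all genes, and 8 of the 10 were below 0, as were 49.6% of all genes. Counting intervals did not overlap for 7 of the 10, all lower in nerve labelled HSF V30M, against 16.6% of the 14916 genes with fragments in both groups. None was higher without overlap, against 18.0%. Summed over the 10 genes, FPKM was 113 in nerve labelled HSF V30M and 159 in nerve labelled HSF WT.

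**Figure D1:**
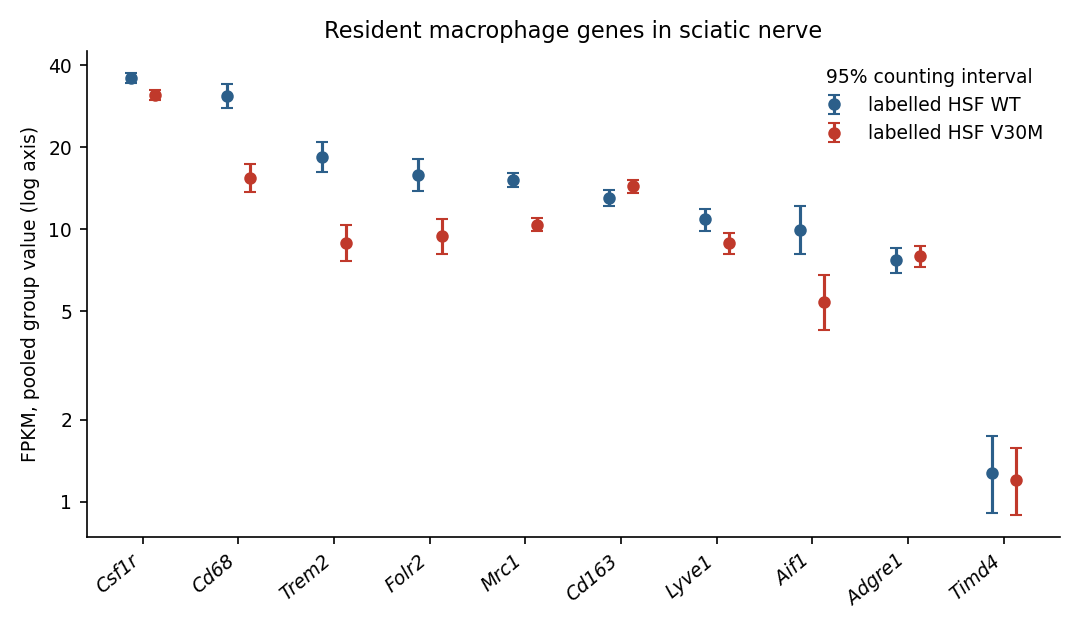
FPKM of the 10 resident macrophage genes (log axis), ordered by their level in nerve labelled HSF WT. Points are the single pooled value of each group and bars the 95% interval of counting error alone; the bars of Cd163, Adgre1 and Timd4 overlap, and those of the other 7 genes do not.

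Csf1r encodes the receptor for CSF1 and IL-34 that macrophages need to survive. It was the most abundant of the 10 in both groups, with an FPKM of 31.2 (95% interval 29.97 to 32.4) in nerve labelled HSF V30M and 36.0 (34.4 to 37.6) in nerve labelled HSF WT. The intervals do not overlap, but the difference was small, a log2 ratio of -0.20, and 26.4% of all genes had a ratio as low. Adgre1 encodes F4/80, the adhesion receptor by which mouse macrophages are most often stained. Its FPKM was 7.98 (7.30 to 8.70) in nerve labelled HSF V30M and 7.70 (6.91 to 8.55) in nerve labelled HSF WT, so a difference was not detectable at this depth.

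Cd68, Aif1 and Trem2 stood lower. Cd68 encodes a glycoprotein of the membranes of endosomes and lysosomes. It had an FPKM of 15.5 (13.7 to 17.4) in nerve labelled HSF V30M and 30.9 (27.9 to 34.1) in nerve labelled HSF WT, which is 1.99-fold lower with a counting interval of 1.70 to 2.34. Aif1 encodes IBA1, an actin-bundling protein of macrophages and microglia. Its values were 5.43 (4.28 to 6.80) in nerve labelled HSF V30M and 9.98 (8.11 to 12.2) in nerve labelled HSF WT. The fold of 1.84 for Aif1 has the wide interval of 1.35 to 2.51, as the values stand for only 76 to 94 and 99 to 140 fragments.

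Trem2 encodes a lipid-sensing receptor that signals through the adaptor TYROBP. Its FPKM was 8.95 (7.64 to 10.4) in nerve labelled HSF V30M and 18.5 (16.2 to 20.9) in nerve labelled HSF WT, 2.06-fold lower with an interval of 1.69 to 2.53. This was the lowest ratio among the 10 genes, at a log2 value of -0.97, and 4.17% of all genes were as low. Tyrobp, named after its value was seen, had 52.5 in nerve labelled HSF V30M and 59.4 in nerve labelled HSF WT. Trem2 therefore stood at 0.171 of the FPKM of its adaptor in nerve labelled HSF V30M and at 0.311 in nerve labelled HSF WT.

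Scavenger and endocytic receptors of the vessel-associated type went separate ways. Cd163 had an FPKM of 14.4 (13.6 to 15.2) in nerve labelled HSF V30M and 13.03 (12.2 to 13.9) in nerve labelled HSF WT. Its levels overlapped in counting error, although the interval of the ratio of HSF WT over HSF V30M, 0.830 to 0.988, lies just below 1. Mrc1 encodes the mannose receptor CD206. It had 10.4 (9.83 to 11.0) in nerve labelled HSF V30M and 15.2 (14.4 to 16.1) in nerve labelled HSF WT, and with a log2 ratio of -0.50 it lay just inside the fold used. Folr2 encodes folate receptor beta, with 9.46 (8.12 to 11.0) in nerve labelled HSF V30M and 15.9 (13.8 to 18.2) in nerve labelled HSF WT. Its fold of 1.68 has a counting interval of 1.37 to 2.06. Both Mrc1 and Folr2 were thus lower with separate intervals, while those of Cd163 overlapped. The FPKM of Folr2 was 0.657 of that of Cd163 in nerve labelled HSF V30M and 1.22 times it in nerve labelled HSF WT.

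Lyve1 encodes a receptor for hyaluronan, a sugar polymer of the extracellular matrix. It had an FPKM of 8.88 (8.13 to 9.68) in nerve labelled HSF V30M and 10.9 (9.90 to 11.9) in nerve labelled HSF WT, with a log2 ratio of -0.27. Timd4 encodes TIM-4, a receptor for phosphatidylserine on dying cells. It was the lowest of the 10, at 1.20 (0.896 to 1.57) in nerve labelled HSF V30M and 1.28 (0.909 to 1.75) in nerve labelled HSF WT. The Timd4 values stand for 52 to 61 and 39 to 52 fragments, and differences of up to 1.64-fold lie inside its counting interval.

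The order of levels differed between the groups below the first 2 places. In nerve labelled HSF WT, FPKM ran from Csf1r and Cd68 through Trem2, Folr2, Mrc1, Cd163, Lyve1, Aif1 and Adgre1 to Timd4. Trem2 overlapped with Folr2 there, Folr2 with Mrc1, Lyve1 with Aif1, and Aif1 with Adgre1. In nerve labelled HSF V30M, the order was Csf1r, Cd68, Cd163, Mrc1, Folr2, Trem2, Lyve1, Adgre1, Aif1 and Timd4. Cd68 overlapped with Cd163, and each gene from Mrc1 to Lyve1 with the next. Trem2 had 1.42 times the FPKM of Cd163 in nerve labelled HSF WT and 0.622 times it in nerve labelled HSF V30M. Cd68 had 0.858 of the FPKM of Csf1r in nerve labelled HSF WT and 0.497 in nerve labelled HSF V30M.

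**Figure D2:**
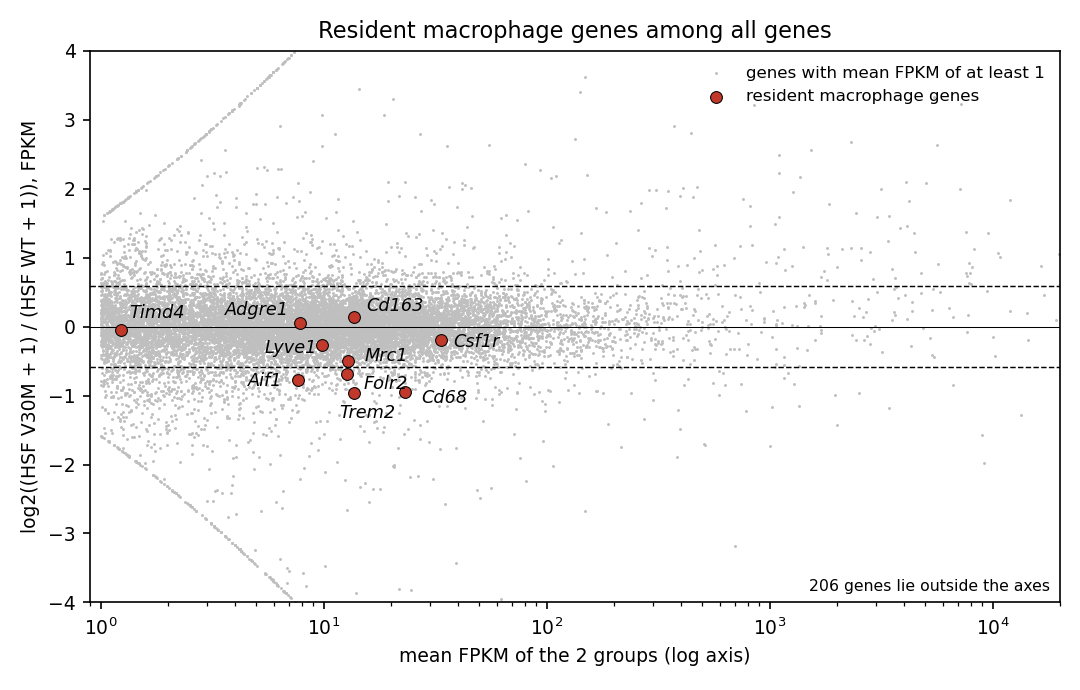
Log2 ratio of the group labelled HSF V30M over the group labelled HSF WT (FPKM + 1) against mean FPKM (log axis) for 15620 genes in grey, with the 10 resident macrophage genes in red. Dashed lines mark the fold of 1.5, the diagonal lines of grey points are genes at 0 in 1 group, 206 genes lie outside the axes, and Aif1, Folr2, Cd68 and Trem2 lie under the lower dashed line.

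Transcript length separated the genes past the fold from the others. The longest coding transcripts in GENCODE M21 of Aif1 (875 bases, 8 exons), Trem2 (1088 bases, 5 exons), Folr2 (1204 bases, 6 exons) and Cd68 (1230 bases, 6 exons) were all under 1500 bases, and all 4 genes were lower past the fold. Those of the other 6 ran from 2173 bases for Timd4 to 5374 bases for Mrc1, and 0 of the 6 passed it. Among all coding genes whose mean FPKM reached 1, the 1822 with transcripts under 1500 bases had a median log2 ratio of -0.04, and 9.77% of them were lower past the fold. The 4029 genes from 3000 to 5000 bases had a median of 0.02, with 4.37% lower. Joined with the pan-macrophage, vessel-associated and transcription factor lists described below, there were 55 macrophage genes. In the shortest class 11 of 20 were lower past the fold, with a median of -0.65. In the class from 3000 to 5000 bases 2 of 12 were, with a median of -0.18. Over 5000 bases it was 1 of 6. These counts include the 10 resident macrophage genes, and the 4 under 1500 bases are all among the 11. The counts are thus no separate support for a split by length. The list of TREM2-associated genes, also described below, was not joined. Of its genes from 3000 to 5000 bases, Gpnmb and Itgax were lower past the fold and Lpl, Ctsb and Axl were not. Of those under 1500 bases with a mean FPKM of at least 1, Apoe was lower past it and Cd9, Lgals3, Fabp5 and Cd63 were not. The length classes were chosen after the values had been seen, and the part of length in the result was not tested.

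**Figure D3:**
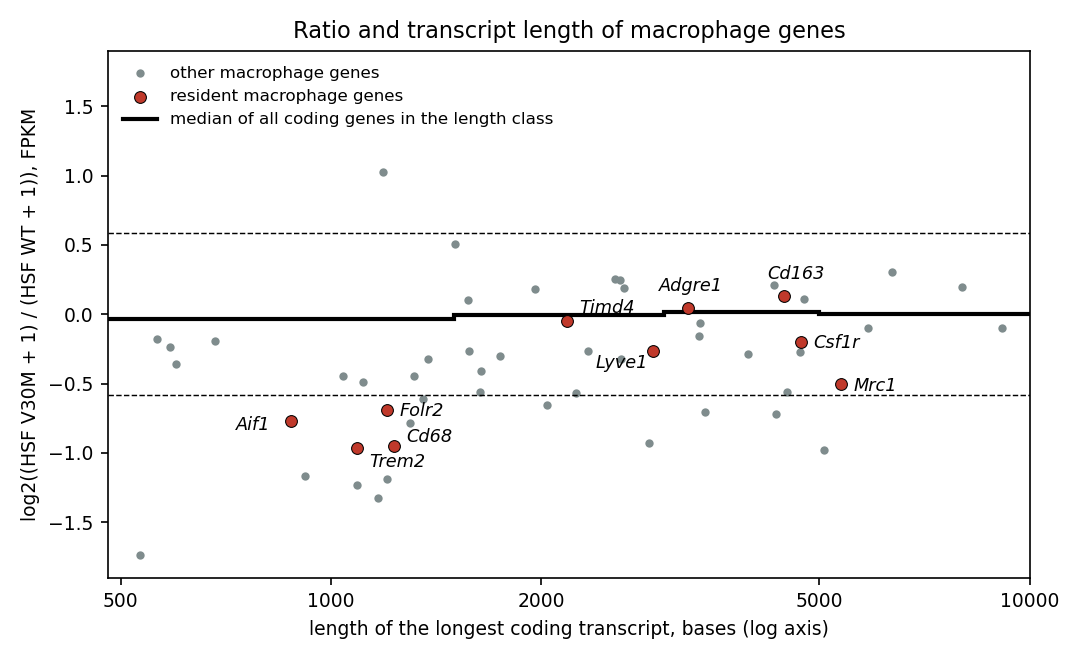
Log2 ratio (HSF V30M over HSF WT as labelled, FPKM + 1) against the length of the longest coding transcript in bases (log axis) for the 10 resident macrophage genes in red and 45 other macrophage genes in grey. The grey genes are those of the pan-macrophage, vessel-associated and transcription factor lists. Black bars are the medians of all coding genes in 4 length classes and dashed lines the fold of 1.5; the 4 red points under 1500 bases all lie below the lower dashed line.

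The 4 lower genes lie on 3 chromosomes of GRCm38. Cd68 (ENSMUSG00000018774) is on the minus strand of chromosome 11 from 69664213 to 69666153. Trem2 (ENSMUSG00000023992) lies on the plus strand of chromosome 17 from 48346401 to 48354147, and Aif1 (ENSMUSG00000024397) on its minus strand from 35170991 to 35176068. Folr2 (ENSMUSG00000032725) is on the minus strand of chromosome 7 from 101839988 to 101857194. In the deposited table, the locus of Folr2 is shared with Inppl1, Phox2a and 2 further genes. Inppl1 had an FPKM of 42.7 in nerve labelled HSF V30M and 26.5 in nerve labelled HSF WT, the opposite direction to Folr2. The loci of Cd68, Trem2 and Aif1 hold no other gene. Of the genes inside the fold, Cd163 (ENSMUSG00000008845) has 17 exons on the plus strand of chromosome 6 from 124304656 to 124330527. Mrc1 (ENSMUSG00000026712) has 30 exons on the plus strand of chromosome 2 from 14229392 to 14332057. Lyve1 (ENSMUSG00000030787), on the minus strand of chromosome 7 from 110850607 to 110863239, has 6. Adgre1 (ENSMUSG00000004730), with 22, shares chromosome 17 with Trem2 and Aif1 and lies on its plus strand from 57358691 to 57483527. Timd4 (ENSMUSG00000055546), with 9, is on the plus strand of chromosome 11 from 46810800 to 46844332.

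The 250 bases before the start site are shown for these 4 genes, each lower past the fold, and for Mrc1 and Cd163, which were not past it. Sequences are from RefSeq on GRCm38.p6, and windows of 7 of the 10 genes were searched. Csf1r, Adgre1 and Lyve1 were not searched, so whether their windows hold the motif is not known here. Each is written 5′ to 3′ on the strand of its gene, and capitals mark GAGGAA or its reverse complement TTCCTC, the core of sites bound by PU.1, a factor that macrophages need to develop. The windows are chr11:69666171-69666420 (minus strand) for Cd68, chr17:48346151-48346400 (plus) for Trem2, chr17:35176053-35176302 (minus) for Aif1, chr7:101857191-101857440 and chr7:101845332-101845581 (both minus) for the outer and the inner start site of Folr2, chr2:14229164-14229413 (plus) for Mrc1 and chr6:124304401-124304650 (plus) for Cd163.
Cd68: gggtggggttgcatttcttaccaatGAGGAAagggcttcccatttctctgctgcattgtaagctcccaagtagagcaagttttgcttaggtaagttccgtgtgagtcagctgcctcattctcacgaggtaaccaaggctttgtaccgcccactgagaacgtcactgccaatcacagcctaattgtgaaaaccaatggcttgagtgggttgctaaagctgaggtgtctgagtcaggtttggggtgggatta
Trem2: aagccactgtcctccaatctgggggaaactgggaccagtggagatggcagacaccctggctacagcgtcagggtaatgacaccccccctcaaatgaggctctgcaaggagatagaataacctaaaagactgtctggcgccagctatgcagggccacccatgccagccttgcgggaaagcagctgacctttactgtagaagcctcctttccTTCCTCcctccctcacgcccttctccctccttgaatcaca
Aif1: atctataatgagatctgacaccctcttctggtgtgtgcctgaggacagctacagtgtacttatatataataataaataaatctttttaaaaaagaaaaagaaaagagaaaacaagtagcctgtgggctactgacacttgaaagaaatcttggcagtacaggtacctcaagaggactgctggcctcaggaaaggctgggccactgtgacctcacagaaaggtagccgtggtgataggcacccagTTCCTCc
Folr2 outer start: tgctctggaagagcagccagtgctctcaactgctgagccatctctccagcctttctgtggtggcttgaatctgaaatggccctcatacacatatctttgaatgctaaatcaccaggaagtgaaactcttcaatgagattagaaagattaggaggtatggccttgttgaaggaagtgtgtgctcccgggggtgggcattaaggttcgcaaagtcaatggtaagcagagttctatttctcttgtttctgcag
Folr2 inner start: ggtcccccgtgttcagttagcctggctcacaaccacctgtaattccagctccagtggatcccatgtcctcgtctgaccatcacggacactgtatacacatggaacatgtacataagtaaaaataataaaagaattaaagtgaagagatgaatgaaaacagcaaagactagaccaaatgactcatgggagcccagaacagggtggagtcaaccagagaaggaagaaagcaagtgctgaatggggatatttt
Mrc1: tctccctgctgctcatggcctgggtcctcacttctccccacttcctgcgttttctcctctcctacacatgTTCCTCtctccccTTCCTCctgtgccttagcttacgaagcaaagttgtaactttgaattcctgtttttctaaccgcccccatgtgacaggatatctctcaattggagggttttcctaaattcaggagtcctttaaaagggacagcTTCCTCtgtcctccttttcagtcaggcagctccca
Cd163: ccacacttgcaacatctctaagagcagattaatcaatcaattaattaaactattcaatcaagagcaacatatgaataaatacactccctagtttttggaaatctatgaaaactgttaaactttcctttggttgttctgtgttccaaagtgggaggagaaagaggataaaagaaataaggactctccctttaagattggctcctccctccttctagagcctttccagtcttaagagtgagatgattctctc
The windows of Cd68, Trem2 and Aif1 hold the motif 1 time each, its first base as printed lying 225, 40 and 7 bases before the start site. Mrc1 holds it 3 times, and neither window of Folr2 nor that of Cd163 or Timd4 holds it. Over 32526 RefSeq windows of the same length, 23.4% hold it on either strand. Of the 6 genes printed, matches were thus present in 3 of the 4 lower genes and in Mrc1. The last 16 bases of the Aif1 window, the last 22 of the Mrc1 window and the last 4 of the outer Folr2 window lie in an exon of the gene as GENCODE annotates it, the inner Folr2 window lies in an intron of the gene, and 28 bases of the Cd163 window lie in the small gene Gm25311.

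The other 19 genes of macrophages in general had a median log2 ratio of -0.41, beside -0.39 for the 10 resident macrophage genes. Of these, 6 were lower past the fold, none was higher, and 16 were below 0. Complement C1q, which tissue macrophages secrete, was uneven across its subunits. C1qb had an FPKM of 58.7 in nerve labelled HSF V30M and 139 in nerve labelled HSF WT, and C1qc had 44.1 and 102 in the same order. C1qa, with 70.6 and 96.5, was inside the fold. Lyz2, the lysozyme gene and the most abundant of the list, had 194 in nerve labelled HSF V30M and 266 in nerve labelled HSF WT, inside the fold. Ctss (a lysosomal protease), Mpeg1 (a pore-forming protein), Cd84 and Ptprc (the pan-leukocyte phosphatase CD45) were the remaining genes past it. Ptprc had 5.79 in nerve labelled HSF V30M and 12.4 in nerve labelled HSF WT.

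Of 18 other genes typical of vessel-associated macrophages, 16 reached a mean FPKM of 1, with a median log2 ratio of -0.30. Cd209d, Cd209g, Ccl24 and Wfdc17 were lower past the fold and Cd209f was higher. Wfdc17, at 0.840 in nerve labelled HSF V30M and 5.13 in nerve labelled HSF WT, reached the minimum mean only through the latter, and it is among the short macrophage genes counted above. The counting intervals of Ccl24 overlapped. Cd209f had 15.0 in nerve labelled HSF V30M and 6.84 in nerve labelled HSF WT, while its relative Cd209g, a lectin gene of the same family, had 3.65 and 10.6 in that order. These lectin genes are closely related in sequence, so the split of reads among them is uncertain. Gas6 and Retnla were the most abundant genes of the list, and Gas6 had 256 in nerve labelled HSF V30M and 214 in nerve labelled HSF WT. Vsig4 and Marco were under the minimum in both groups, and Marco is listed at 0 in nerve labelled HSF V30M.

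Genes listed as associated with TREM2, lipid handling and uptake were also split. Of the 13 whose mean FPKM reached 1, 3 were lower past the fold, 1 was higher, and the median was -0.22. Apoe, which encodes a lipid carrier that TREM2 binds, had 1309 in nerve labelled HSF V30M and 2599 in nerve labelled HSF WT. Gpnmb and Itgax were also lower, at 27.6 and 1.35 in nerve labelled HSF V30M and 56.1 and 3.88 in nerve labelled HSF WT. Spp1, which encodes the secreted protein osteopontin, went the other way with 496 in nerve labelled HSF V30M and 125 in nerve labelled HSF WT. Cd9, a membrane gene that Schwann cells also use, had 646 and 602 in that order. Around Timd4, 9 of 13 genes of phosphatidylserine recognition reached a mean FPKM of 1, and none of them passed the fold. Their median was 0.10, and Gas6 and Axl were the most abundant. With the 4 genes under the minimum included, the median turned to -0.076 and 1 gene was lower past the fold.

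Csf1r binds CSF1 and IL-34, and the genes of its ligands differed in opposite directions. Csf1 had an FPKM of 22.2 in nerve labelled HSF V30M and 36.1 in nerve labelled HSF WT, lower past the fold. Il34, which was inside the fold, had 61.9 in nerve labelled HSF V30M and 44.1 in nerve labelled HSF WT. The sum of both ligand genes and the related cytokine and receptor genes Csf2, Csf2ra, Csf2rb and Csf3r was 102 in each group, and Csf3r, a receptor gene of granulocytes, was the other one lower past the fold among the 5 with a mean of at least 1. Among 10 transcription factors of macrophages, Spi1, the gene of PU.1, had 6.28 in nerve labelled HSF V30M and 10.4 in nerve labelled HSF WT. Irf8 had 7.25 and 14.7 in that order, and these 2 were lower past the fold, with none higher. Zeb2 and Maf were the most abundant of them and lay inside it, and the median was -0.10. Zeb2 had 237 in nerve labelled HSF V30M and 254 in nerve labelled HSF WT, far above Csf1r in either group. As for Gas6, Apoe and Spp1 above, which cells of the nerve made it was not tested. Csf1r (ENSMUSG00000024621) itself lies on the plus strand of chromosome 18 from 61100598 to 61132149, and its locus in the table is shared with Hmgxb3 (FPKM 6.77 as labelled HSF V30M and 5.90 as labelled HSF WT) and 2 small RNA genes at 0.

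Relatives of the 10 genes were looked at for shared direction. Of 19 relatives, 8 reached a mean FPKM of 1, and their median was -0.10. Folr1, the folate receptor alpha, had 4.79 in nerve labelled HSF V30M and 2.73 in nerve labelled HSF WT, higher past the fold where Folr2 was lower, though the counting intervals of Folr1 overlapped. Aif1l, which is like Aif1 in its protein, was lower past the fold with 73.6 in nerve labelled HSF V30M and 112 in nerve labelled HSF WT. Mrc2 had 24.9 and 25.7 in that order, within counting error, where Mrc1 was lower. Adgre5, Havcr2, Kit, Pdgfra and Pdgfrb had log2 ratios from -0.45 to 0.12.

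Markers of other cells differed between the groups in both directions, and their part in the values of the resident macrophage genes was not tested. Neutrophil genes were higher in nerve labelled HSF V30M, 5 of 5 past the fold, with a summed FPKM of 101 against 24.9 and S100a9 the most abundant, while the surface marker gene Ly6g was at 0.120 and 0.195. Erythroid genes were higher for 5 of 6, with a sum of 291 against 101 and Hbb-bs on top; of these 5, Slc4a1 (3.20 and 0.925) reached the minimum only through the higher group. B cell genes were lower for 4 of 4 (sum 2.23 against 21.2, Cd79a on top), T cell genes for 2 of 2 (2.38 against 8.02, Cd2 on top) and mast cell genes for 3 of 4 (123 against 195, Tpsb2 on top). The 4 B cell genes and the T cell gene Cd3e reached the minimum mean only through nerve labelled HSF WT, so these counts support nothing. With all 5 listed genes of each included, the median log2 ratio was -1.44 for B cells and -0.28 for T cells, where Cd3d had 0.510 and 0.486. Skeletal muscle genes were lower for 4 of 4 (27.7 against 121, Ckm on top) and adipocyte genes for 2 of 4 (669 against 1011, Adipoq on top). No gene of these lists is listed at 0. Lists of cells nearer to macrophages differed less. Monocyte genes had a median of 0.24 with Chil3 and Nr4a1 higher past the fold among 7 (sum 107 against 82.9, Nr4a1 on top), but Chil3 (2.45 and 0.612) reached the minimum only through the higher group. Dendritic cell genes had a median of -0.37 with none of 5 past the fold, and of -0.17 with all 9 listed genes included (16.4 against 20.8, Zbtb46 on top). Microglia-type genes had a median of -0.19 with 1 of 6, Olfml3, higher. For Lyve1 and Mrc1, the lymphatic endothelial genes had a median of 0.11 with none of 5 past the fold (171 against 164, Reln on top), and their defining factor gene Prox1 was at 0.660 and 0.527, below the minimum. Blood endothelial genes had a median of 0.24 with Vwf and Cldn5 higher among 7 (262 against 198, Cldn5 on top). Schwann cell genes had 0.23 with 1 of 8, S100b, higher, and fibroblast genes -0.07 with none of 4 past the fold (1674 against 1663, Dcn on top). In each pair the group labelled HSF V30M comes first. Each sum covers all listed genes of its list, also those under the minimum. The gene on top is the one with the highest mean FPKM of the 2 groups. It can hold much of a sum, as Nr4a1 (45.1 and 29.6) and Reln (123 and 108) did. Which cells of the nerve made these genes was not tested. In nerve labelled HSF WT alone, Ace (31.9) exceeded Nr4a1 (29.6) and Cd79b (7.16) exceeded Cd79a (7.09).

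**Figure D4:**
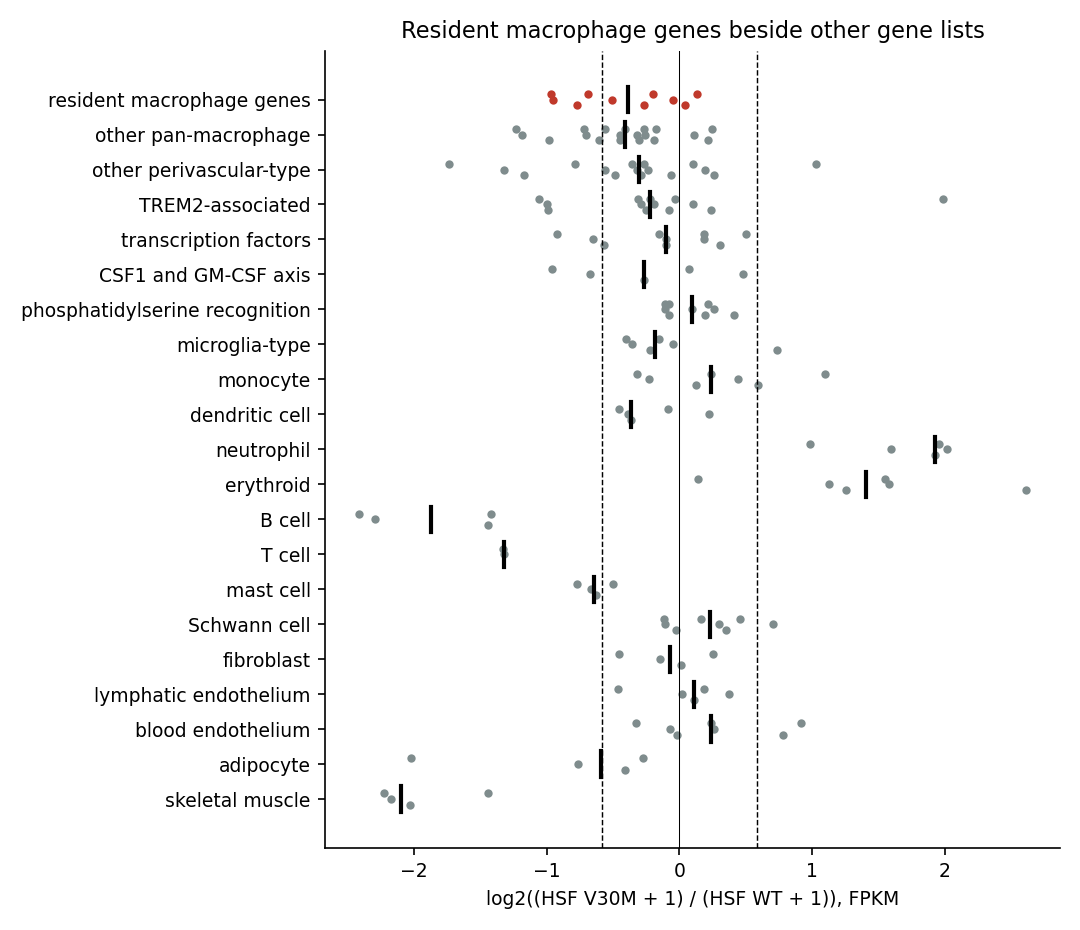
Log2 ratio (HSF V30M over HSF WT as labelled, FPKM + 1) of genes whose mean FPKM reached 1 in the resident macrophage list (red) and 20 other lists (grey), 1 point per gene. Thick bars are list medians and dashed lines the fold of 1.5; the median of the resident macrophage genes, -0.39, lies beside that of the other pan-macrophage genes, -0.41.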

How the data were processed

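RNA of sciatic nerve was sequenced with Ion Torrent protocols. Per the submitters' notes, STAR, Cufflinks and Cuffdiff were used with the mouse genome GRCm38; versions and options are not given in the sources used here. The authors deposited 1 table with a Cuffdiff FPKM per gene and group, pooled over libraries and written with decimal commas. Its columns of log2 fold change, test statistic, p-value, q-value and significance hold the authors' own comparison and were not used. Its status column marks 23 genes as too deeply covered to be estimated, and these were dropped.

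Ratios were log2((HSF V30M + 1) / (HSF WT + 1)), with a minimum mean FPKM of 1 and a fold of 1.5. No test was run here, since the FPKM used are pooled per group and the authors' own test was left aside. Members and lists were chosen with earlier results of these data known. Named genes are all members, Ttr and Hsf1, the 2 most abundant genes of each list and those past the fold, and relatives with a mean FPKM of at least 1; genes sharing a locus with a member, Tyrobp, further examples inside the fold and markers under the minimum were added after values were seen. Of 2 Itgam entries the higher was used. Some genes that this rule names are not reported here.

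Transcripts are from GENCODE M21 (GRCm38), which holds 50346 of the 50570 genes used. With 200 bases taken from the length, the product of FPKM and effective kilobases peaked at 0.0390 and 0.0458 (HSF V30M) and at 0.0481 and 0.0648 (HSF WT), which is what 1 fragment was worth in each library; 79.6% of 495 low HSF V30M values lay within 5% of these and 94.9% of 1121 HSF WT values within 2%. This step was found after values were seen. Fragment numbers run from the shortest complete coding transcript with the larger worth to the longest with the smaller. Intervals use the lower number, exact Poisson for a level and Clopper-Pearson for a fold, and cover counting error only. Scripts were tested on simulated data. Python 3.11.15, numpy 2.4.6, scipy 1.17.1 and matplotlib 3.10.9 were used.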

Additional observations from a re-analysis of the deposited data

How the results depend on the processing

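No paired analysis was possible because no value per mouse was used, only pooled ones; leave-one-out was not run for the same reason. The alternatives were a pseudocount of 0.1 or none (the latter chosen after seeing the data), median-of-ratios scaling, no minimum or a minimum mean FPKM of 5, and a fold over 2. Cd68, Trem2, Aif1 and Folr2 were past the fold under each alternative but 1, and no member was higher past it under any. With a fold over 2, still read with 1 added to each FPKM, 0 members were past it. On plain FPKM Trem2 was 2.06-fold lower, so its place inside that fold rests on the pseudocount. Lower past it were 2 of 19 other pan-macrophage genes (6 at 1.5) and 1 of 13 TREM2-associated genes (3 at 1.5). Over all genes 616 were lower and 621 higher. A fold over 2 is a stricter rule by construction. With a minimum of 5, Timd4 drops out and the members' median was -0.50; 2 of 13 vessel-associated genes were lower in place of 4 of 16, and over all genes 646 were lower and 732 higher. Without a minimum, the median of the phosphatidylserine recognition genes was -0.076 in place of 0.10, with 4 genes under the minimum added. A median was taken as kept within 0.1 on the log2 scale and a count within 1.5 times. The other 63 comparisons for the members and these 3 macrophage lists were kept. Of those for single members, further lists and all genes, 284 were kept and 40 moved, mostly medians and counts of short lists of other cell types. The 1 that reversed was the median of the phosphatidylserine recognition genes without a minimum. Depth limits Timd4 and Aif1 most among the members.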
